A study of Mus musculus with 6 samples.

Results

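In ribosome-bound RNA of lung pericytes, 9 genes of nitric oxide and natriuretic peptide signalling through cyclic GMP (cGMP) were examined. These 9, of 21603 genes with a value, were taken by symbol for their place in the pathway, with earlier results of these data known. They are Nos3, the soluble guanylyl cyclase subunits Gucy1a1 and Gucy1b1, the natriuretic peptide receptors Npr1, Npr2 and Npr3, the kinase gene Prkg1 and the phosphodiesterase genes Pde5a and Pde3a. All 9 passed the filter on low values.

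In the vessel wall, nitric oxide made by endothelial cells diffuses into neighbouring mural cells and binds the haem of soluble guanylyl cyclase, a dimer of an alpha and a beta subunit that turns GTP into cGMP. Natriuretic peptides raise cGMP by another route, through receptors whose inner part is itself a guanylyl cyclase. cGMP activates cGMP-dependent protein kinase, which relaxes contractile cells, and phosphodiesterases end the signal. In the lung this pathway is known for keeping pulmonary vessels dilated, and inhibitors of PDE5 and stimulators of the soluble cyclase are used against pulmonary hypertension.

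RNA came from lungs of C57BL/6 mice at postnatal day 8, 3 controls and 3 Yap1,Wwtr1 iPCKO mutants. Every mouse carried the tamoxifen-inducible Pdgfrb(BAC)-CreERT2 transgene, which acts in PDGFRβ-expressing cells, and the RiboTag allele, which places an HA tag on the ribosomal protein RPL22 of recombined cells. Antibody against HA then pulls down the RNA on their ribosomes. The labels give the controls as Yap1+/-;Wwtr1+/- and the mutants as lacking both copies of Yap1 and of Wwtr1 (which encodes TAZ). In the study these were loxP-flanked alleles, on both copies in mutants and on a single copy in controls. They were lost in cells where the transgene recombined them after tamoxifen, not in the germ line. In such cells the controls were heterozygous and not wild-type. All mice received tamoxifen in the first days of life. The transgene is a bacterial artificial chromosome under Pdgfrb control, and any other cell in which it acts would also be tagged. Values are RPKM, reads scaled to exon length and library depth, as deposited by the authors.

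In the mutants, Yap1 had 5.61 ± 0.314 RPKM (SD, n = 3) against 12.4 ± 0.859 RPKM in controls, a log2 fold change of -1.12 (adjusted p = 0.00017, limma). Wwtr1 had 62.0 ± 1.63 against 60.4 ± 9.48 RPKM (log2 fold change 0.05, adjusted p = 0.82), and a value per gene does not separate deleted exons from the others. Steps in low RPKM values implied between 14.24 and 39.62 M reads a sample. No marker of the 10 cell type lists was at 0 in any sample. The 10 pericyte markers summed to between 3531.7 and 4399.1 RPKM in controls and to between 2970.1 and 3591.6 in mutants. Of them, 3 rose and 3 fell past the thresholds given below, which 6.79% of all tested genes passed in either direction. Pdgfrb itself had between 1369 and 1666 RPKM in controls and between 1193 and 1447 in mutants. Summed markers of leukocytes (56.8 to 80.8 RPKM in controls, 145.0 to 255.0 in mutants), neutrophils (87.1 to 129.2 against 448.9 to 4948.8) and platelets (8.2 to 10.1 against 23.5 to 66.7) were higher in every mutant sample. Those of epithelial cells (554.6 to 640.5 against 819.4 to 862.0) and cardiomyocytes (41.5 to 52.4 against 68.0 to 72.3) were too. Smooth muscle (1500.8 to 1669.2 against 1616.3 to 1733.3), fibroblast (586.4 to 747.0 against 659.8 to 924.2), endothelial (237.9 to 258.9 against 246.7 to 273.2) and erythrocyte markers (2222.2 to 2783.4 against 1370.3 to 6027.1) overlapped between the groups. In such bulk RNA, fewer cells of a type and less RNA per cell cannot be told apart. The sources do not say whether a number shared between the groups marks a litter or day, and p-values measure the spread between these 6 samples.

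The pathway in controls was dominated by 3 transcripts. Gucy1a1 had a mean of 960.7 RPKM, Pde5a of 664.5 and Gucy1b1 of 420.1, which placed each of them above at least 99.7% of the 12034 tested genes. Further down, the control means were 80.8 RPKM for Pde3a, 31.5 for Npr3 and 27.8 for Prkg1. Npr2 had 11.5, Npr1 6.9 and Nos3 3.6 RPKM. In this order of levels per length, the control samples of neighbouring genes overlapped only between Npr3 and Prkg1. In the mutants Npr3 (17.7 RPKM) came after Prkg1 (21.5 RPKM) with no overlap, while Pde5a (435.7) and Gucy1b1 (355.3) overlapped. The message for the cyclase and for the PDE5 enzyme was thus far more abundant than that for the membrane receptors and for the kinase in both groups.

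**Figure D1:**
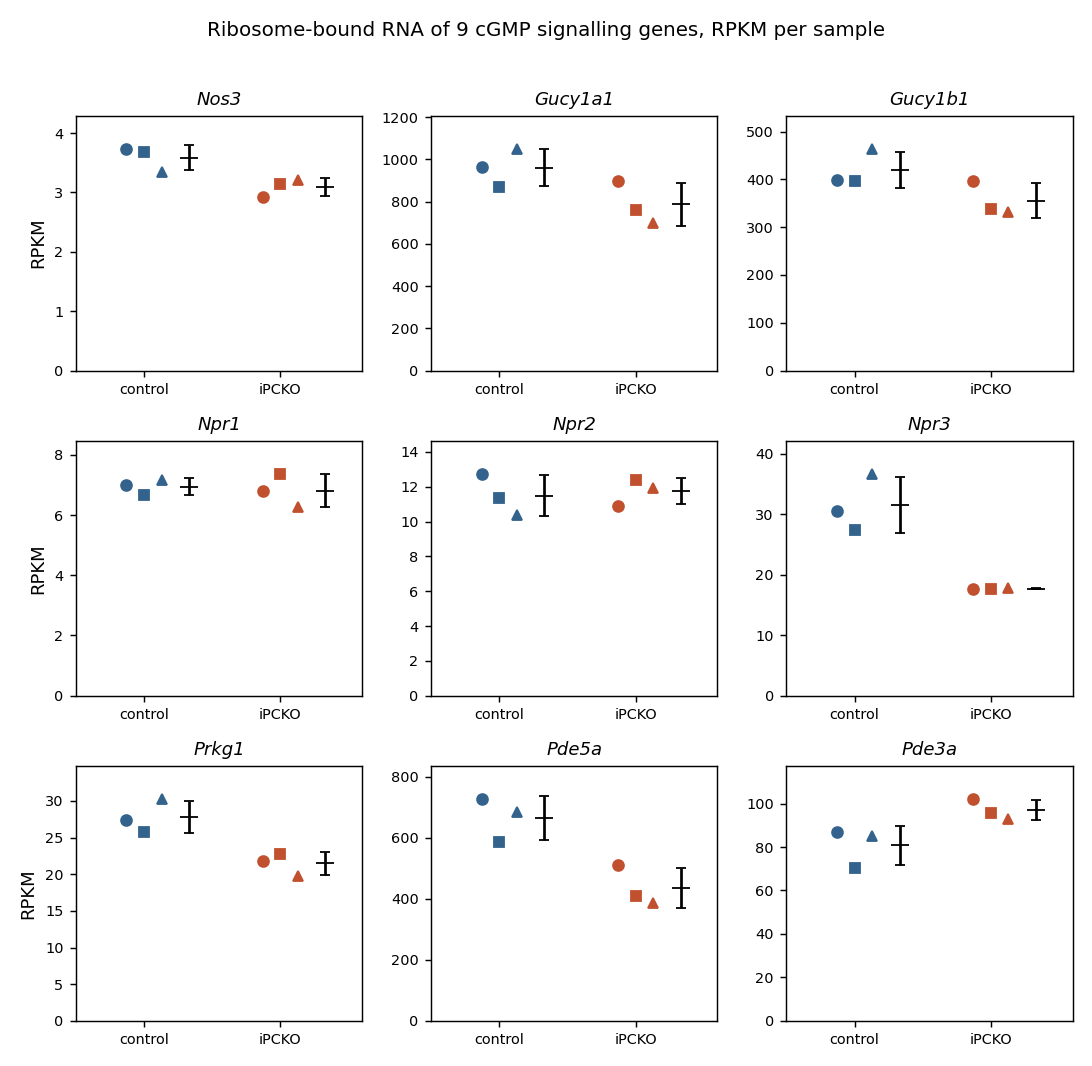
RPKM of each of the 9 genes in the 3 control (blue) and 3 Yap1,Wwtr1 iPCKO (red) samples, each panel with its own linear axis from 0; circle, square and triangle mark samples 1, 2 and 3, and the cross bar with whiskers gives mean ± SD. Npr3 shows the widest relative gap, with mutants at 17.6 to 17.8 RPKM below controls at 27.4 to 36.6 RPKM, and Pde3a is the gene with all mutants above all controls.

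Between control and mutant pericytes, Npr3 fell and was the only one of the 9 genes past the thresholds of the study, which ask for an adjusted p below 0.01 together with a log2 fold change beyond 0.5 in either direction (limma over all tested genes). Of all tested genes 6.79% passed them, 2.68% as lower and 4.11% as higher in mutants, so 1 of 9 is close to the background. Of the 817 genes that passed, 495 were higher and 322 lower in mutants; with every sample scaled to equal Pdgfrb, a setting chosen after seeing the data, the numbers were 788 and 182. In 6 of the 9 genes the samples of the groups did not overlap, 5 of them lower in mutants and Pde3a higher. Of the 12034 tested genes 35.5% did not overlap, 2063 as lower and 2205 as higher in mutants. Gucy1b1 is among the 5 only because iPCKO 1 at 397.3 RPKM lay just under control 2 at 397.5 RPKM. The median log2 fold change of the 9 was -0.24, against 0.00 over all tested genes. An unadjusted p below 0.05 was found for 4 of the 9, and for 29.7% of all tested genes. With every sample scaled to equal Pdgfrb, the median over all genes was 0.195. The log2 fold changes were then -0.095 for Gucy1a1, -0.045 for Gucy1b1, -0.015 for Nos3 and -0.175 for Prkg1 (adjusted p = 0.31, limma). Those of Pde5a and Npr3 were -0.416 and -0.625, and those of Pde3a, Npr1 and Npr2 were 0.464, 0.165 and 0.231. Only Npr3 passed in that fit. Other pericyte markers moved in both directions between the groups, and scaling to any of them was not run.

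Nos3 (ENSMUSG00000028978, chromosome 5, 24364810 to 24384474, GRCm38), the endothelial nitric oxide synthase, was the lowest of the 9. It had 3.73, 3.68 and 3.35 RPKM in control 1, 2 and 3 and 2.93, 3.14 and 3.21 RPKM in iPCKO 1, 2 and 3. Every mutant value lay under every control value, by at least the small gap between 3.21 and 3.35 RPKM. The log2 fold change was -0.21 (SE 0.11, 95% confidence interval -0.45 to 0.03) and did not pass (adjusted p = 0.23, limma). Markers of endothelial cells, the main source of this enzyme, were present throughout. Relative to the mean log2 level of the 10 endothelial markers, Nos3 stood at -2.21, -2.40 and -2.55 in controls and at -2.73, -2.61 and -2.50 in mutants. These values overlapped, and their difference of -0.22 gave p = 0.2 in the two-sided exact permutation test (0.3 after adjustment over 3 ratios; 3 samples against 3 cannot go below 0.1). With the median over the markers in place of the mean, the groups did not overlap and the difference was -0.415 (p = 0.1, exact permutation test), and without control 1 it was -0.137 with the mean. Exons of Nos3 also share 1334 of 4132 bases with the opposite-strand genes Gm15587 and Atg9b. The libraries were stranded, but the strand setting of the count is not given in the sources used here, so the value of Nos3 may depend on reads of these genes. The bases shared in this way were fewer in the others, 741 of 12737 in Pde3a, 559 of 4783 in Npr1, 266 of 4667 in Npr2 and 55 of 9831 in Pde5a, and none in Gucy1b1 and Prkg1.

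Gucy1a1 and Gucy1b1 encode the alpha-1 and beta-1 subunits of soluble guanylyl cyclase, the receptor for nitric oxide. They are neighbours on the minus strand of chromosome 3, Gucy1a1 (ENSMUSG00000033910) at 82092427 to 82145789 and Gucy1b1 (ENSMUSG00000028005) at 82032006 to 82074689, 17.7 kb apart with no annotated gene between them. Gucy1a1 had 961.4, 871.2 and 1049.4 RPKM in control 1, 2 and 3 and 898.6, 760.4 and 699.6 in the mutants. The groups overlapped because iPCKO 1 lay above control 2. For Gucy1b1 the values were 398.7, 397.5 and 464.0 RPKM in controls and 397.3, 337.8 and 330.8 in mutants, so that iPCKO 1 was level with the controls and the other mutants were lower. Neither subunit passed: the log2 fold changes were -0.29 (95% confidence interval -0.64 to 0.06, adjusted p = 0.24, limma) for Gucy1a1 and -0.24 (-0.54 to 0.05, adjusted p = 0.25) for Gucy1b1.

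The balance of the subunits was much alike in both groups. Gucy1a1 had 2.29 ± 0.11 times the RPKM of Gucy1b1 in controls and 2.21 ± 0.08 times in mutants (SD, n = 3). The log2 ratio differed by -0.05 between the groups (p = 0.4, two-sided exact permutation test, 0.4 adjusted over 3 ratios). A different alpha subunit did change. Gucy1a2 (chromosome 9, 3532778 to 3894736), which encodes alpha-2 and can replace alpha-1 in the dimer, had 46.5, 36.9 and 45.0 RPKM in controls and 10.5, 7.63 and 8.95 in mutants. It fell, to well under the lowest control in every mutant (log2 fold change -2.24, SE 0.14, adjusted p = 3.9e-05, limma), and it was the only gene of the wider pathway list to fall past the thresholds. Its share of the alpha-subunit RPKM went from 4.61%, 4.06% and 4.11% in controls to 1.16%, 0.99% and 1.26% in mutants. Alpha-1 therefore made up nearly all alpha-subunit message in both groups, and Gucy1b2 was too low to be tested (0.297 ± 0.129 RPKM in controls, 0.184 ± 0.057 in mutants).

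Npr1 (ENSMUSG00000027931, chromosome 3, 90450591 to 90465866) encodes the receptor cyclase for the atrial and B-type peptides, and Npr2 (ENSMUSG00000028469, chromosome 4, 43631935 to 43651244) that for the C-type peptide. Npr1 had 7.01, 6.65 and 7.18 RPKM in controls and 6.80, 7.36 and 6.28 in mutants. Npr2 had 12.7, 11.4 and 10.4 RPKM in controls and 10.9, 12.4 and 11.9 in mutants. In both genes the groups overlapped and the mutant mean lay within the spread of the controls. The 95% confidence intervals of the log2 fold changes were -0.25 to 0.19 for Npr1 (adjusted p = 0.87, limma) and -0.20 to 0.27 for Npr2 (adjusted p = 0.86), and the signs of both estimates changed with the processing.

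Npr3 (ENSMUSG00000022206, chromosome 15, 11839896 to 11907287) encodes the receptor that has no cyclase domain and removes natriuretic peptides by taking them into the cell. It had 30.5, 27.4 and 36.6 RPKM in control 1, 2 and 3, whereas the mutants were all close to 17.7, with 17.6, 17.6 and 17.8 RPKM. The mutant mean was 56.0% of the control mean and the mutants were far less spread than the controls (31.5 ± 4.68 against 17.7 ± 0.111 RPKM, SD, n = 3). The log2 fold change was -0.82 (SE 0.11, 95% confidence interval -1.08 to -0.57, adjusted p = 0.0018, limma). Without iPCKO 2, the deepest library, it was -0.82 with an adjusted p of 0.011 and no longer passed, while in the other alternatives with the thresholds kept it did. Npr3 shares 321 of its 9389 exon bases with Gm5144 on the opposite strand.

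Set against the receptor cyclases, clearance receptor message lay below their sum in the mutants. Npr3 RPKM divided by the sum of Npr1 and Npr2 was 1.55, 1.52 and 2.09 in controls and 0.99, 0.89 and 0.98 in mutants. Each control thus had more Npr3 than both cyclase receptors together, and each mutant slightly less. The log2 ratio differed by -0.83, and p = 0.1 in the two-sided exact permutation test is the smallest that 3 samples against 3 allow (0.3 adjusted over 3 ratios).

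Promoter windows from RefSeq (GRCm38.p6), the 250 bases before the annotated start, are shown for Npr3 and Gucy1a2, the receptor and the cyclase gene that fell past the thresholds. They are written 5′ to 3′ on the strand of the gene, with capitals for the letters TGACG, the core of the cAMP response element, and GGGCGG, the GC box. The Npr3 window is chr15:11907372-11907621 on the minus strand and the Gucy1a2 window is chr9:3532099-3532348 on the plus strand. The GENCODE gene starts given elsewhere, 11907287 for Npr3 and 3532778 for Gucy1a2, lie further downstream. Positions below count from the RefSeq starts.
Npr3: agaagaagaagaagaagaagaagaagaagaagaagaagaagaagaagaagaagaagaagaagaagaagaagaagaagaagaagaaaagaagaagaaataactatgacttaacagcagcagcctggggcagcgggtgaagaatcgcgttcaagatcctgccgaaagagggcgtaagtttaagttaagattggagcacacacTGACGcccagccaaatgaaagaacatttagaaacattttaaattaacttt
Gucy1a2: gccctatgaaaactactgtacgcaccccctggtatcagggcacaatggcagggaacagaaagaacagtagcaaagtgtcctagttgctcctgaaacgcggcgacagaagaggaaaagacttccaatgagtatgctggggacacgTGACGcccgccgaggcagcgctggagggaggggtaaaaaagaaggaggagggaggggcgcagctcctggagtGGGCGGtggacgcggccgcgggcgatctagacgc
The Npr3 window held 38.8% G and C and opened with a run of 28 copies of GAA, and its TGACG began at position -50 from the start. That of Gucy1a2 held 59.6% G and C, with TGACG at -106 and GGGCGG at -34. Over both strands TGACG was in 17.8% and GGGCGG in 32.7% of all 32851 promoter windows of this length. Among the 9 genes, 7 had an entry, some with more than 1 start, which gave 9 windows. Of these, 2 held TGACG (Gucy1b1 and Npr3) and 6 held GGGCGG (windows of Gucy1a1, Gucy1b1, Npr1, Pde5a and Prkg1). CATTCC, the letters bound by TEAD factors, the DNA-binding partners of YAP1 and TAZ, was in 12.6% of all windows and in 0 of these 9. So few windows cannot set 0 apart from that share. The 9 windows do not include that of Gucy1a2, and sites outside the 250 bases were not searched. In the 2 sequences shown no matches overlapped, and a match of letters is no measurement of binding.

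Prkg1 (ENSMUSG00000052920, chromosome 19, 30564489 to 31765033) encodes cGMP-dependent protein kinase I, the main effector of cGMP in contractile cells. It had 27.4, 25.8 and 30.2 RPKM in controls and 21.8, 22.8 and 19.8 in mutants. The groups did not overlap, and the mutant mean was 77.2% of the control mean. Its log2 fold change of -0.37 (SE 0.10, 95% confidence interval -0.59 to -0.15) did not pass (adjusted p = 0.033, limma). The second kinase gene, Prkg2, stayed under the filter with 0.815 ± 0.176 RPKM in controls and 1.02 ± 0.225 in mutants.

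Pde5a (ENSMUSG00000053965, chromosome 3, 122728947 to 122859374) encodes PDE5, which breaks down cGMP and is itself stimulated by binding it. It had 726.0, 584.7 and 682.8 RPKM in control 1, 2 and 3 and 511.1, 409.6 and 386.4 in the mutants. Every mutant lay below every control, and the mutant mean was 65.6% of that of controls. The log2 fold change was -0.61 (SE 0.15, 95% confidence interval -0.96 to -0.26), with an adjusted p of 0.03 that did not pass (limma). It passed with quantile normalization (-0.71, adjusted p = 0.0058), with sample weights (-0.64, 0.0017) and without iPCKO 1 (-0.73, 0.0098), and its adjusted p ranged from 0.0017 to 0.12 over the alternatives.

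Pde3a (ENSMUSG00000041741, chromosome 6, 141249269 to 141507448) encodes PDE3A, which splits cAMP and is held back by cGMP, so that it ties the cGMP and cAMP signals together. It was the only one of the 9 genes with every mutant above every control, with 86.8, 70.5 and 85.1 RPKM in controls and 102.0, 95.6 and 93.0 in mutants. The lowest mutant was above the highest control, yet the log2 fold change of 0.27 (SE 0.11, 95% confidence interval 0.02 to 0.51) did not pass (adjusted p = 0.14, limma). Within a sample, Pde5a had 8.23 ± 0.18 times the RPKM of Pde3a in controls and 4.48 ± 0.46 times in mutants (SD, n = 3). This ratio separated the groups, from 8.03 to 8.36 in controls and from 4.15 to 5.01 in mutants, and was not tested. Platelets are also known to hold soluble guanylyl cyclase, cGMP-dependent kinase, PDE5 and PDE3A. Platelet markers were higher in mutants, the opposite direction to Pde5a, Prkg1 and the cyclase subunits and the same direction as Pde3a, and their part in these values was not tested.

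**Figure D2:**
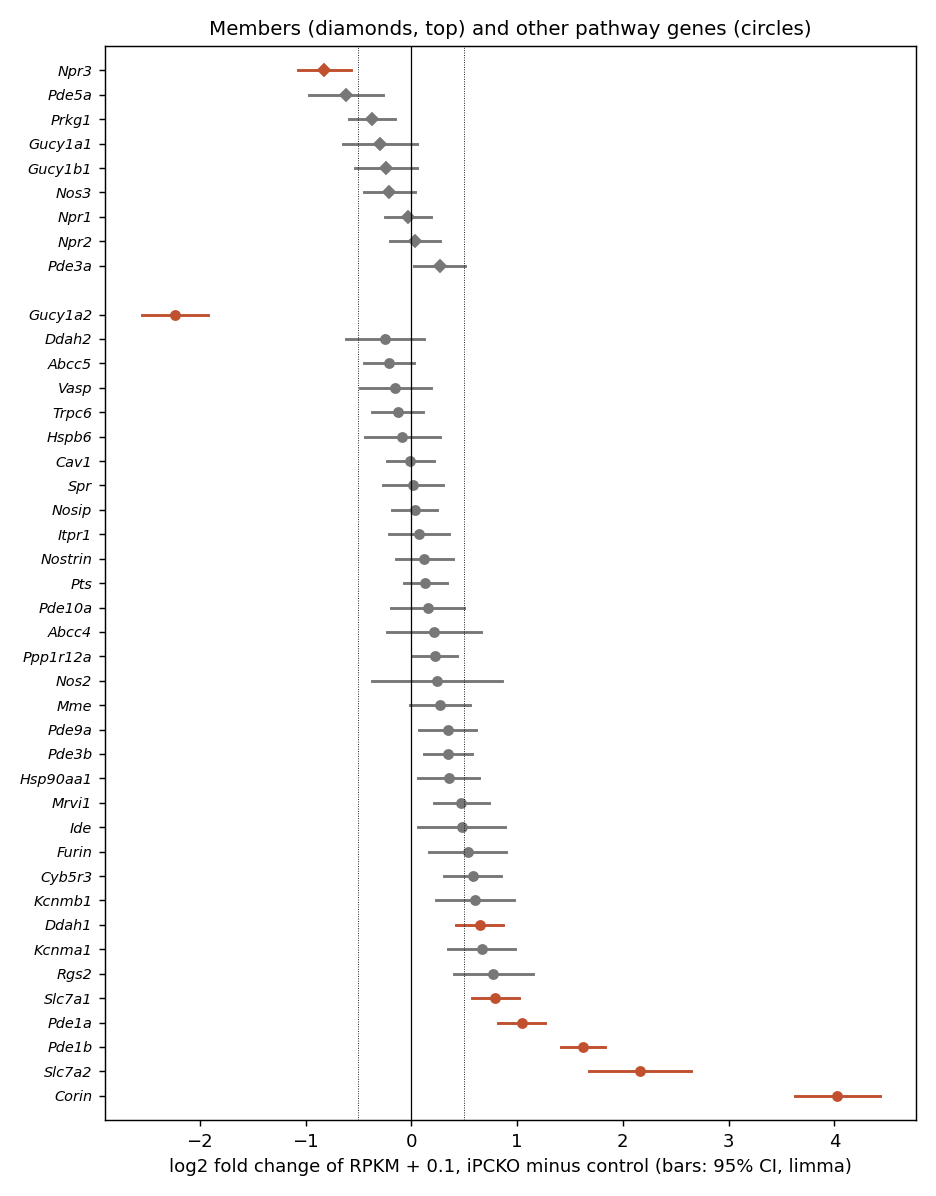
Log2 fold change of RPKM + 0.1, mutants minus controls, with 95% confidence interval (limma) for the 9 genes (diamonds) and 33 further tested genes of the pathway (circles); genes past the thresholds are red, and dotted lines mark a log2 fold change of 0.5 in either direction. Npr3 (-0.82) is the only red diamond, and Gucy1a2 (-2.24) and Corin (4.03) are the extremes of the circles.

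A wider list of 57 genes around the pathway, also chosen with earlier results of these data known, was read in the same way. Of these, 56 were matched to a row and 33 passed the filter. Of the 33, 7 passed the thresholds, 6 as higher and 1 as lower in mutants, against the background of 6.79% of all tested genes. Corin passed the filter through the mutants alone and therefore had to differ; without it, 6 of 32 passed, 5 as higher. In 19 of the 33 the groups did not overlap, 18 higher and 1 lower, Corin included. Of the 12034 tested genes 35.5% did not, 2205 as higher and 2063 as lower in mutants. The median log2 fold change of the 33 was 0.27, opposite in sign to that of the 9 genes. With every sample scaled to equal Pdgfrb, 11 passed, 10 as higher and 1 as lower. Over all tested genes, 970 passed in that fit, 788 as higher and 182 as lower. This scaling moved the median over all genes by 0.195 on the log2 scale.

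Of these 7 genes, 3 handle arginine, the substrate of nitric oxide synthase, or its methylated inhibitors. Slc7a2, an arginine transporter, rose from 2.19, 2.99 and 4.35 RPKM in controls to 12.97, 15.5 and 13.8 in mutants (log2 fold change 2.16, SE 0.21, adjusted p = 0.00039, limma). Slc7a1, the main arginine transporter of most cells, rose from 3.28, 3.06 and 3.16 to 5.77, 5.22 and 5.70 RPKM (0.79, adjusted p = 0.0011). Both transporters were higher in each mutant than in any control. Ddah1, which degrades the methylarginines that inhibit nitric oxide synthases, rose from 7.78, 7.86 and 8.53 to 12.9, 13.8 and 11.4 RPKM. Its log2 fold change of 0.65 (adjusted p = 0.0031) stayed positive but lost the threshold in 4 of 6 leave-one-out fits, those without control 1, control 2, control 3 or iPCKO 2 in turn (adjusted p from 0.011 to 0.019). The other 8 tested genes of this group did not pass, Nostrin with 81.2 ± 8.22 RPKM in controls and 88.5 ± 10.5 in mutants (SD, n = 3) and Ddah2 with 89.5 ± 17.5 and 75.0 ± 11.6 RPKM being the highest.

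Of the other synthases, Nos2 had 1.011 ± 0.176 RPKM in controls and 1.26 ± 0.505 in mutants (adjusted p = 0.59, limma), and Nos1 was under the filter. Slc7a2 is also known from activated macrophages. Leukocyte markers were higher in all 3 mutants, with 8 of 10 rising past the thresholds, and their part in this value was not tested.

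**Figure D3:**
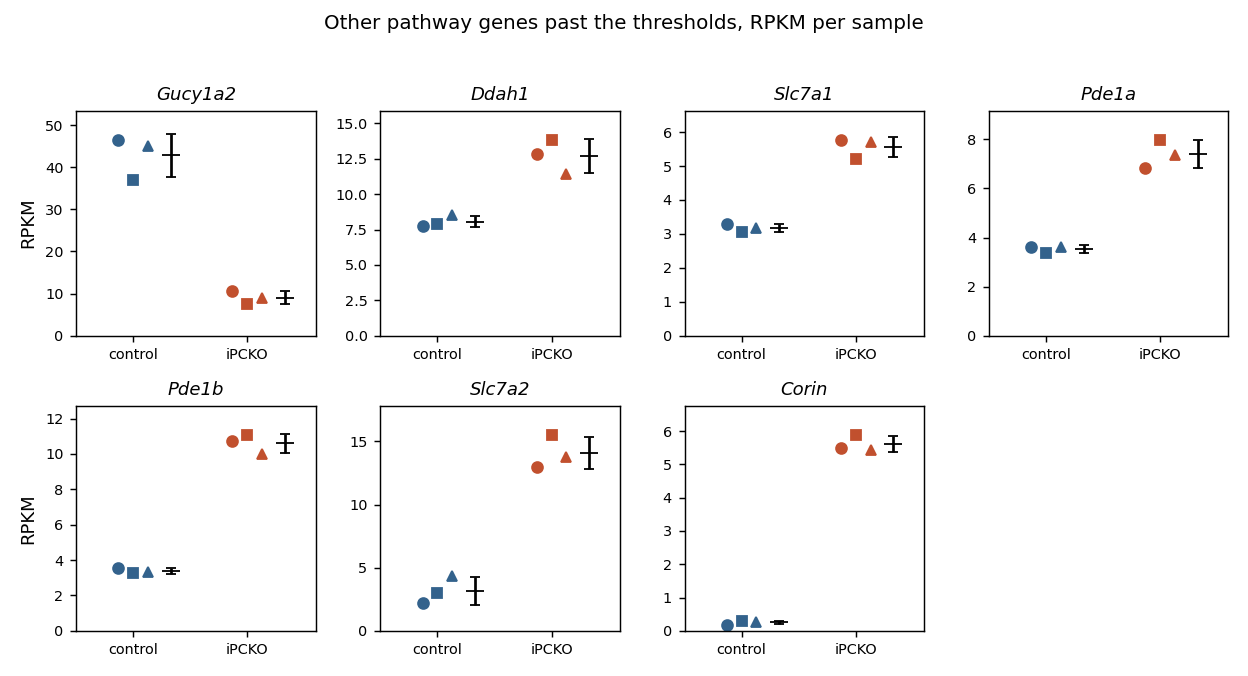
RPKM per sample of the 7 further pathway genes past the thresholds, controls in blue and mutants in red, each panel with its own linear axis from 0, with mean ± SD beside the points and circle, square and triangle for samples 1, 2 and 3. In all 7 panels the groups are apart, Gucy1a2 with mutants lower (7.63 to 10.5 against 36.9 to 46.5 RPKM) and the other 6 with mutants higher.

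On the side of the peptides, Corin, the protease that cuts the atrial peptide from its precursor, rose from 0.188, 0.297 and 0.272 RPKM in controls to 5.50, 5.87 and 5.44 in mutants. The log2 fold change was 4.03 (SE 0.17, adjusted p = 7.9e-06, limma). The control values stand for few reads, about 20 in the lowest sample, and its presence in the test rests on the mutants alone. Corin is chiefly known from atrial heart muscle, and summed cardiomyocyte markers were 41.5 to 52.4 RPKM in controls and 68.0 to 72.3 in mutants, with 0 of the 5 tested markers past the thresholds. The part of heart muscle in this value was not tested. The peptide genes themselves gave hardly any signal. Nppb was listed at 0 in all 6 samples, and Nppa in all but iPCKO 3 (0.081 RPKM). Ostn had 0.033 and 0.035 RPKM in iPCKO 1 and 2 and was listed at 0 elsewhere, and Nppc had 0, 0 and 0.028 RPKM in controls and 0.091, 0.073 and 0 in mutants. Furin, a protease that cuts the C-type precursor, had 17.4 ± 4.58 RPKM in controls and 24.7 ± 0.181 in mutants, and Ide, a peptide-degrading enzyme, had 4.68 ± 0.68 and 6.63 ± 1.68 RPKM. Neither passed (adjusted p = 0.058 and 0.12, limma). Both passed with sample weights, as did 13.2% of all tested genes. Furin also passed scaled to equal Pdgfrb and without control 1.

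Both other phosphodiesterases that rose belong to the PDE1 family, which is activated by calcium and calmodulin and splits cGMP and cAMP. Pde1b had 3.56, 3.26 and 3.33 RPKM in controls and 10.7, 11.1 and 9.997 in mutants (log2 fold change 1.62, SE 0.09, adjusted p = 2.8e-05, limma). Pde1a had 3.61, 3.37 and 3.63 RPKM in controls and 6.84, 7.98 and 7.39 in mutants (1.04, adjusted p = 0.00033). In each gene the mutants lay together and well above the controls. The third family member, Pde1c, was under the filter at 0.252 ± 0.037 RPKM in controls and 0.086 ± 0.047 in mutants. Pde9a, with 13.1 ± 0.234 and 16.8 ± 2.79 RPKM, and Pde3b, with 7.23 ± 0.448 and 9.22 ± 0.877 RPKM, were higher in each mutant than in each control but did not pass (adjusted p = 0.089 and 0.052). Pde1b is known from blood monocytes and macrophages as well, and the part of leukocyte RNA in it was not tested.

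Added over 12 phosphodiesterase genes that split cGMP (Pde2a was not analysed here), RPKM came to 843.1, 683.7 and 797.6 in controls and to 662.9, 551.1 and 522.7 in mutants, with every mutant below every control. Pde5a made up 85.75% ± 0.33 of the sum in controls and 75.1% ± 1.73 in mutants (SD, n = 3), and Pde3a 10.4% ± 0.21 and 16.8% ± 1.28. Pde1a and Pde1b together went from 0.9% ± 0.06 to 3.14% ± 0.43. These shares are of RPKM and say nothing of enzyme activity. In both groups PDE5 message remained the bulk of the sum.

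**Figure D4:**
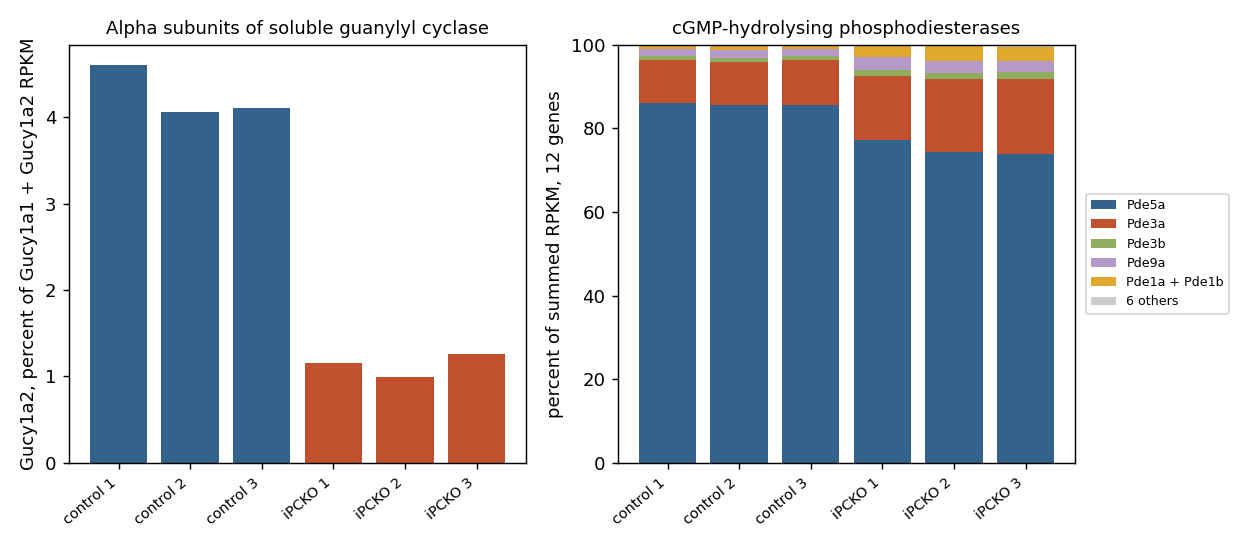
Left, Gucy1a2 as a percent of the summed RPKM of Gucy1a1 and Gucy1a2, 1 bar per sample on an axis from 0; right, stacked shares of the summed RPKM of 12 cGMP-splitting phosphodiesterase genes per sample. The Gucy1a2 share is 4.06 to 4.61% in controls and 0.99 to 1.26% in mutants, and the Pde5a share is 85.5 to 86.1% in controls and 73.9 to 77.1% in mutants.

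Downstream of cGMP, none of the 9 tested kinase substrates and channels passed (limma). Of all tested genes 6.79% did, so none of 9 is close to the background. An unadjusted p below 0.05 was found for 5 of them, and for 29.7% of all tested genes. In 5 of the 9 every mutant lay above every control, as in 2205 of the 12034 tested genes. Counting both directions, 35.5% of all tested genes had no overlap. With sample weights 4 of the 9 passed, and 13.2% of all tested genes did. Vasp, an actin regulator phosphorylated by the kinase, had 167 ± 20.1 RPKM in controls and 151 ± 24.4 in mutants, and Trpc6, a cation channel, had 124 ± 12.4 and 113 ± 6.98 RPKM (SD, n = 3). These most abundant members of the group overlapped between control and mutant samples. For cGMP export, Abcc5 had 9.69 ± 0.832 and 8.36 ± 0.716 RPKM and Abcc4 had 1.35 ± 0.215 and 1.596 ± 0.33 RPKM, and neither passed. The 4 other receptor guanylyl cyclases were under the filter, the highest being Gucy2g with 0.129 ± 0.059 RPKM in controls and 0.328 ± 0.074 in mutants.

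Among all tested genes, those whose log2(RPKM + 0.1) ran closest to Gucy1a1 over the 6 samples were Dlc1 (Pearson's r = 0.996), Cep44 (0.993) and Arhgap42 (0.992). For Gucy1b1 they were Polr3f (0.994), Ednra (0.99) and Ddx10 (0.988), and Nos3 ran closest to Zfp935 (0.992), Lrsam1 (0.99) and Zfp820 (0.99). The cyclase subunits correlated with each other at r = 0.966, which ranked Gucy1b1 22nd for Gucy1a1, and Nos3 with them at 0.347 and 0.297. These are descriptions over 6 samples of both genotypes, so they include the difference between the groups. Genes of the same sample also share its library and depth.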

How the data were processed

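Per the labels, ribosome-associated RNA was precipitated with anti-HA beads from 6 lungs (3 control, 3 iPCKO) and made into stranded total RNA libraries. The authors aligned reads with TopHat to mm10 (GRCm38), obtained gene counts with HTSeq 0.6.1 and used DESeq2 for their own tests; the submitters' processing notes name the same tools. The values deposited by the authors are RPKM for 21603 genes in each sample. The exon length and the strand setting behind them are not given in the sources used here. RPKM no longer show reads, so depth was read from the steps of low values in genes with a single transcript, where 74.9% to 76.9% of genes under 10 reads lay within 0.02 reads of a whole number. Each table held 1 sample.

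From these values log2(RPKM + 0.1) was tested with limma 3.58.1 in R 4.3.3 (intensity trend, Benjamini-Hochberg over the 12034 genes that reached 1 RPKM in 3 or more of the 6 samples). A gene passed with an adjusted p below 0.01 together with a log2 fold change beyond 0.5 in either direction. Fold changes on this scale understate those of low genes. Ratios were compared with the two-sided exact permutation test in Python 3.11.15 (scipy 1.17.1, numpy 2.4.6, pandas 2.3.3; figures with matplotlib 3.10.9). The fit was tested on simulated data. Symbols were matched for 21375 genes. Coordinates are 1-based, from GENCODE M21 on GRCm38. Promoter windows come from RefSeq, with entries for 7 of the 9 genes; Pde3a and Nos3 had no entry in the table used. Samples were grouped by their labels, and libraries with the same number in both groups were not treated as pairs.

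The 9 genes, the wider list and the marker lists were chosen with earlier results of these data known. Named by rule were the 9 genes, the wider-list genes past the thresholds, the 2 of highest mean RPKM in each of its groups, Yap1, Wwtr1, and the 3 genes most alike to Gucy1a1, Gucy1b1 and Nos3. Further genes (Gucy1b2, Nos1, Prkg2, Pde1c, Pde9a, Pde3b, the peptide genes, Pdgfrb, Cspg4, Rgs5) are named for their family or to explain a setting. No row was matched to the symbol Pde2a, which was not analysed here. The alternatives were other pseudocounts (1 and 0.01 RPKM), no filter or one that asks for 1 RPKM in all 6 samples, quantile normalization, median-ratio scaling, a fit without the trend, sample weights, a replicate block, each sample left out, other thresholds and, chosen after seeing the data, scaling to equal Pdgfrb.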

Additional observations from a re-analysis of the deposited data

How the results depend on the processing

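Of 144 values of the 9 genes over 16 alternative fits, 135 kept their direction and side of the thresholds and 5 reversed, all of them estimates near 0. The log2 fold change of Npr1 became 0.052 with sample weights and 0.165 when scaled to equal Pdgfrb, and with samples left out it ranged from -0.086 to 0.027 (without iPCKO 3). That of Npr2 ranged from -0.036 (without control 3) to 0.111, and was -0.004 without iPCKO 2. The 4 others are Npr3 and Pde5a at the thresholds, as given with those genes. The number of the 9 genes past the thresholds went from 1 to 2 (Npr3 and Pde5a) with quantile normalization, sample weights or an adjusted p below 0.05, to 0 when a log2 fold change beyond 1 was asked for, and ranged from 0 (without iPCKO 2) to 2 (without iPCKO 1) with samples left out. Of the wider list, 14 in place of 7 passed with sample weights and 11 with an adjusted p below 0.05 or scaled to equal Pdgfrb, and 5 to 8 with samples left out. Corin could not be tested where an iPCKO sample was left out.

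Over all tested genes, 817 became 1590 with sample weights, 1313 at an adjusted p below 0.05 and 411 with a log2 fold change beyond 1. With samples left out it ranged from 363 (without control 3) to 804, and was 373 without iPCKO 2, 455 without iPCKO 3 and 544 without control 2; fewer samples entered these fits. Deviations of samples with the same number correlated at r = 0.022 to 0.238 and those with different numbers at -0.298 to 0.273. Of the 6 samples, 4 correlated best with their own number. These few samples do not settle whether the numbers mark pairs, and the main fit did not take them as pairs. The replicate block gave 922 genes, 1 of the 9 and 8 of the wider list, and changed no call among the 9. Among the 9 genes depth limits Nos3 most, with about 189 reads in its lowest sample. The cause of these shifts was not tested.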

Other observations

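Several genes downstream of cGMP lay near the thresholds without passing them in the fit of the report, and are named here after their values had been seen. Rgs2, which limits signalling by Gq-coupled receptors and is a target of the cGMP-dependent kinase, had 18.0, 19.9 and 13.7 RPKM in controls and 31.9, 32.3 and 24.0 in mutants (log2 fold change 0.78, adjusted p = 0.014, limma). Kcnma1 and Kcnmb1 encode the pore and an accessory subunit of the calcium-activated BK channel, which the kinase opens. Kcnma1 had 1.48, 1.42 and 1.29 RPKM in controls and 2.46, 2.08 and 2.27 in mutants (0.66, adjusted p = 0.014), and Kcnmb1 had 3.73, 2.34 and 2.90 RPKM in controls and 4.67, 4.61 and 4.27 in mutants (0.60, adjusted p = 0.039). Mrvi1, the kinase substrate that restrains calcium release through inositol trisphosphate receptors, had 5.57, 5.12 and 4.88 RPKM in controls and 6.81, 8.36 and 6.64 in mutants (0.47, adjusted p = 0.027). In each of these genes all mutants lay above all controls. Summed smooth muscle markers overlapped between the groups, with 2 of the 10 markers higher and 2 lower in mutants past the thresholds. The part of smooth muscle in these values was not tested. Cyb5r3, a reductase that keeps the haem of soluble guanylyl cyclase in its nitric oxide-sensitive state, had 45.2, 34.3 and 34.3 RPKM in controls and 55.0, 57.1 and 56.7 in mutants (0.58, adjusted p = 0.013). The calls of these genes changed with the processing. Rgs2 passed with the replicate block, with sample weights and scaled to equal Pdgfrb, Kcnma1 without the intensity trend and with sample weights, Kcnmb1 with sample weights and scaled to equal Pdgfrb, and Mrvi1 with sample weights. Cyb5r3 passed with quantile normalization, with sample weights, scaled to equal Pdgfrb and without control 1. At an adjusted p below 0.05 all of them but Mrvi1 passed.

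Arg2, an arginase that competes with nitric oxide synthases for arginine, was under the filter and not tested, with 0.213, 0.241 and 0.363 RPKM in controls and 0.86, 1.98 and 2.996 in mutants.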
